A study of Mus musculus with 18 samples.

Results

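The PRAME-like genes of the mouse were followed through exit from naive pluripotency in WT and iEZR_CA embryonic stem cells (ESCs). Genes were taken as members when their GRCm38 symbol began with Pramel or Pramef and when at least 10 reads were counted on them over all 18 libraries together, so that members were chosen by their symbol and their summed count, which is given here as a description only. Of 53801 genes in the table, 14 had such a symbol and 12 were members. Just inside the limit lay Pramel5 with 12 counts and Pramef6 with 14, and just outside it lay Pramel4 with 1 count and the pseudogene Pramel with 0.

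PRAME-like proteins are built of leucine-rich repeats and are named after PRAME, an antigen first found in human melanoma. The family has expanded strongly in rodents, and many of its genes are known from germ cells, oocytes and the early embryo. Human PRAME serves as the substrate receptor of a CUL2 ubiquitin ligase. In mouse ESCs, PRAMEL7 is known to act with CUL2 to bring about the degradation of UHRF1, the protein that recruits the maintenance DNA methyltransferase DNMT1, and Pramel6 and Pramel7 are known to favour naive pluripotency, Pramel7 downstream of LIF and STAT3.

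WT cells were the mouse ES line E14TG2a. iEZR_CA cells were made from E14 cells with a PiggyBac construct in which doxycycline induces a phosphomimetic, constitutively active ezrin together with mCherry. Ezrin tethers actin filaments beneath the cell membrane. Both lines were collected in 2i+LIF, the medium of naive ESCs (ESC, 0 h), and after 24 h (T24) and 48 h (T48) of exit in N2B27, on gelatin, with 3 libraries in each of the 6 groups. Doxycycline was given to iEZR_CA cells from about 16 h before exit and is not mentioned for WT cells, so the drug, the transgene and the line itself cannot be told apart in any comparison of the lines. Whether iEZR_CA cells are 1 clone is not given in the sources used here.

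The libraries held 10940752 to 33276622 reads on genes, and replicates differed by more than sampling noise in all 18 pairs. The chi-square per degree of freedom was 1.55 to 3.33. The spread between replicates was small, with a common coefficient of variation of 2.98% in the edgeR fit. The p-values below set differences against this spread within groups. Ezr, which the construct should raise, had a mean normalized count of 11763, 7711 and 10096 in WT ESC, T24 and T48 cells and of 24819, 20793 and 16215 in iEZR_CA cells. Reads of the transgene and of the endogenous gene are not separated in these counts. The 5 ES cell markers checked (Pou5f1, Sox2, Nanog, Zfp42 and Esrrb) were detected in every group, with a summed normalized count of 89912 to 91792 in WT ESCs and 79531 to 81028 in iEZR_CA ESCs. At T24 the sum was 47599 to 48361 in WT and 60155 to 61227 in iEZR_CA cells, and at T48 16791 to 17842 and 23235 to 24581. The sum, like Sox2, Nanog, Zfp42 and Esrrb, was thus higher in iEZR_CA cells, as Pramel6, Pramel7 and Pramef17 were at these times. Pou5f1 was lower in iEZR_CA cells at every stage (log2 fold change -0.32, -0.48 and -0.27 at ESC, T24 and T48). The part of these markers in the differences of the members was not tested. The share of alignments set aside for low quality was 0.519% to 0.612% in the WT line and 0.889% to 1.02% in the iEZR_CA line, and its part in the results was not tested.

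The members sit in 3 places of the genome (GRCm38). Pramel7 (chromosome 2, 87489087 to 87497093, minus strand) and Pramel6 (87506565 to 87510872, plus strand) lie head to head with 9471 bases between them. A group of 9 members spans 1.01 Mb of chromosome 4, from 143394428 to 144408464. In order these are Pramel1, Pramef8, Pramef6, Pramef25, Pramef17, Pramel5, Pramef20, Pramef12 and Pramef12os, an antisense RNA that starts inside Pramef12. Pramel3 lies on chromosome X (135302307 to 135312652). All but Pramef12os are annotated as protein coding. RefSeq uses newer names for several of them, such as Pramel14 for Pramef17, Pramel12 for Pramef8 and Pramel13 for Pramef12.

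Promoter sequences (RefSeq, GRCm38.p6, 250 bases before to 50 bases after the start) were found for 10 of the 12 members, all but Pramef8 and Pramef12os. Those of Pramel7, Pramel6 and Pramef17 are shown because, among the members tested, the counts of these 3 genes fell most steeply during exit. That of Gm13128 is shown because it is a close copy of Pramef17, and that of Pramel1 because it held the most CG of these 10 members. They are written 5′ to 3′ with CG, the dinucleotide that DNA methylation marks, in capitals.
Pramel7 (chr2:87492369-87492668, minus strand): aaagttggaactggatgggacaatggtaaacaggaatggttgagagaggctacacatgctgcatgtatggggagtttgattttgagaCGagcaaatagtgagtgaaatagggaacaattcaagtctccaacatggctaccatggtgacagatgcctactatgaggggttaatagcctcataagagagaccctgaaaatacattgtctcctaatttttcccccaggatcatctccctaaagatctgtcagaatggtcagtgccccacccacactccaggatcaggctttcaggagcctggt
Pramel6 (chr2:87506315-87506614, plus strand): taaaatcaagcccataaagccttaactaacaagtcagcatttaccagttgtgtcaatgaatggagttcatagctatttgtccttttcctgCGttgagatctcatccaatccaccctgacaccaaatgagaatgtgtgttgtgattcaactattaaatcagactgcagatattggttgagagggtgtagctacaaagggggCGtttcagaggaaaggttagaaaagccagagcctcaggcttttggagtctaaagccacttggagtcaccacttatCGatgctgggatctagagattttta
Pramef17 (chr4:143994320-143994619, minus strand): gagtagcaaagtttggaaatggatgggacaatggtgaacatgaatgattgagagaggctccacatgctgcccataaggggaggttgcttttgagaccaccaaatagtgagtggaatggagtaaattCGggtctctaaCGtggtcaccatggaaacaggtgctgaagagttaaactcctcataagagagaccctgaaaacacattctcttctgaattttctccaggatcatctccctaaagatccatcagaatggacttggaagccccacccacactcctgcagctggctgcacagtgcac
Gm13128 (chr4:144329999-144330298, plus strand): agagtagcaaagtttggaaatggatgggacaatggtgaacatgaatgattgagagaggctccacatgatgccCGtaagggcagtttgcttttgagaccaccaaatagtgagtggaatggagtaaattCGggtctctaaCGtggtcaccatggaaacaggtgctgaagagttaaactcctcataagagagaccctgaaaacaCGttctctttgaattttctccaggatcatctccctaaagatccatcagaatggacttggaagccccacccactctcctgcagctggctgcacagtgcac
Pramel1 (chr4:143394191-143394490, plus strand): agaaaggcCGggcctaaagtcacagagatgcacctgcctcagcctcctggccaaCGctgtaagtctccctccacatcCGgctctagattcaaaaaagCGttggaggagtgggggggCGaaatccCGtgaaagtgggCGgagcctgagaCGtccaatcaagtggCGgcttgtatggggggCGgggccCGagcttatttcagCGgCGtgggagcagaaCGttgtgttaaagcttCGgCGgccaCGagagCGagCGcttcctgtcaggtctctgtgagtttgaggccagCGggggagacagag
The RefSeq start of Pramel7 lies within the longer GENCODE gene. The promoters of Pramef17 and Gm13128 were identical at 293 of 301 alignment columns (97.3%), where a column with a gap counts as different. Those of Pramel7 and Pramef17, which lie on different chromosomes, were identical at 234 of 311 (75.2%). The promoters of the neighbours Pramel7 and Pramel6 shared 45.1% of alignment columns, close to what most other pairs of the family shared. Pramel7 held 1 CG, Pramef17 2, Pramel6 3 and Gm13128 4, against a median of 7 over all 32851 promoters. Pramel1 held 20, and 73.5% of all promoters held fewer. The STAT motif TTCNNNGAA, which reads the same on both strands and was searched on both, occurred in 8.30% of all promoters and in none of the 10 promoters of members. This says only that these letters are not in these windows.

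Parts of the family are so alike that some short reads may not be assignable to 1 gene. Along the longest transcript of each member, every window of 50 bases was looked up in the transcripts of all other genes. Of 1704 windows of Pramef17, 1252 (73.5%) also occurred in Gm13128, a PRAME-like gene 335879 bases away. The 2 transcripts were identical over 98.9% of alignment columns. In Pramel3 the share was 81.8%, mostly with Gm15023, in Pramef25 63.6%, in Pramef6 35.2% and in Pramel5 27.1%. By contrast no window was shared in Pramel6, Pramel1, Pramef8, Pramef20, Pramef12 or Pramef12os, and 0.442% were shared in Pramel7. With windows of 100 bases less was shared, 62.1% in Pramel3, 56.35% in Pramef17, 26.5% in Pramef25, 18.4% in Pramef6 and 4.05% in Pramel5. Between any pair of the 11 protein coding members the longest transcripts were identical over 27.1% to 78.8% of alignment columns (median 45.2%). Columns with a gap count as different, so a difference in length lowers these percentages. The lowest is that of Pramef20 with 1434 bases against Pramef8 with 3886.

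**Figure D1:**
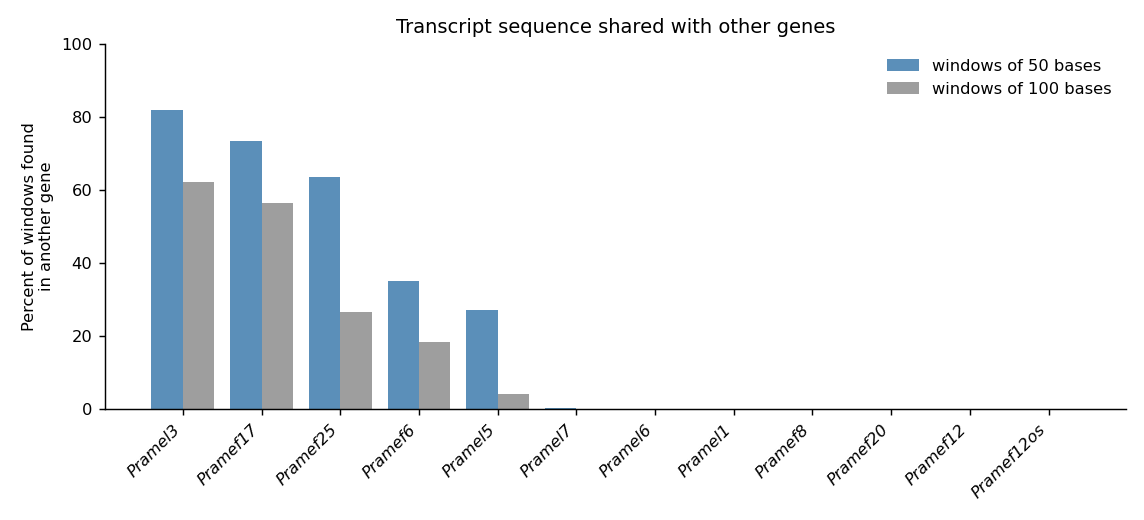
Percent of the windows of 50 bases (blue) and 100 bases (grey) along the longest transcript of each of the 12 members that also occur in the transcript of another gene. Pramel3, Pramef17 and Pramef25 stand highest at 50 bases, with 81.8%, 73.5% and 63.6%, and 6 members have none.

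Reads were counted with HTSeq, and whether strand was used is not given in the sources used here, so reads of Pramef12 and Pramef12os cannot be told apart where they overlap. Counts of Pramef17, Pramel3, Pramef25, Pramef6 and Pramel5 are uncertain for the same windows, since reads that map equally well to copies may be dropped or split. Reads tallied as not uniquely aligned made up 0.0761% to 0.169% of each library.

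Levels of different genes were set side by side as normalized count per kb of exon, where the normalized count is the count divided by the library's DESeq2 size factor. In WT ESCs Pramef12, a gene known from male germ cells, was highest of the members with 628 ± 19.9 per kb (SD, n = 3). It was followed by Pramef17 with 94.7 ± 9.47, Pramef8 with 61.1 ± 3.43, Pramel6 with 27.7 ± 0.660, Pramel7 with 18.3 ± 3.29 and Pramel1 with 11.6 ± 2.57, and the libraries of neighbours in this order did not overlap. In iEZR_CA ESCs Pramef12 stood at 515 ± 6.21 per kb and Pramel6 came next with 383 ± 11.7, above Pramef17 with 238 ± 30.9, Pramef8 with 135 ± 5.78, Pramel7 with 123 ± 6.004 and Pramel1 with 32.9 ± 1.02, again with no overlap between neighbours. By T48 the order in both lines was led by Pramef12 (225 ± 33.5 per kb in WT and 224 ± 6.60 in iEZR_CA cells), Pramef8 (79.5 ± 1.82 and 63.1 ± 3.95) and Pramel1 (25.1 ± 1.32 and 17.8 ± 2.51). Below them, Pramel1, Pramef17, Pramel7 and Pramel6 of iEZR_CA cells overlapped with their neighbours in the order.

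**Figure D2:**
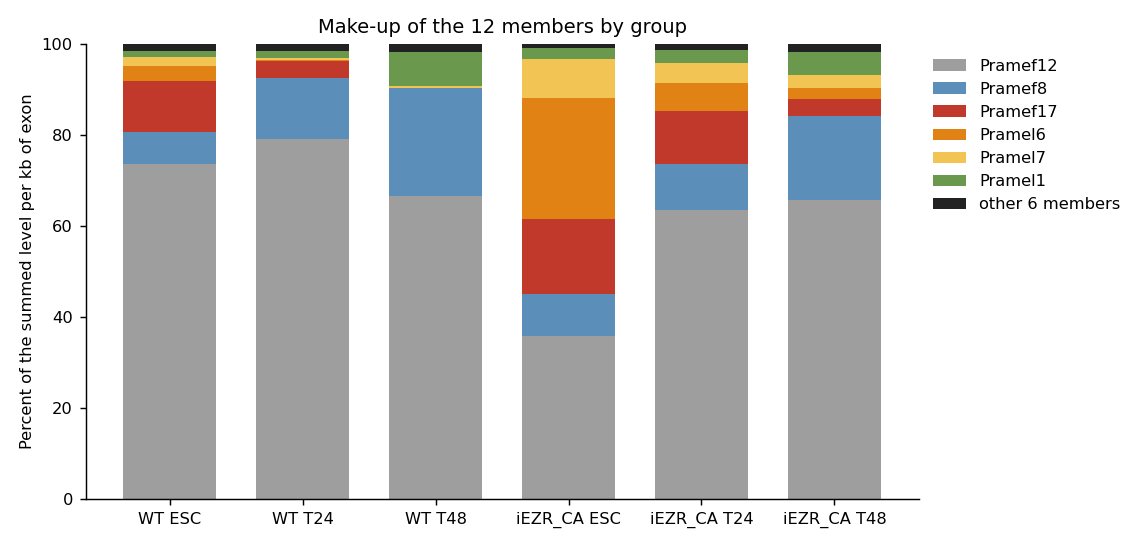
Share of each gene in the summed level per kb of exon of the 12 members (vertical axis, percent), from group means of 3 libraries, for the 6 groups. Pramef12 takes 73.5% in WT ESCs and 35.7% in iEZR_CA ESCs, and Pramel6 3.24% and 26.6%.

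Pramel6 made up 3.24% of the summed level per kb of the 12 members in WT ESCs and 26.6% in iEZR_CA ESCs. Pramel7 (2.15% and 8.53%) and Pramef17 (11.1% and 16.6%) also took more of the total in the iEZR_CA line, and Pramef12 took less (73.5% and 35.7%). These shares and the order above leave out Gm13128, whose symbol does not begin with Pramel or Pramef. It had 474 and 1144 normalized counts in WT and iEZR_CA ESCs on a longest transcript of 1745 bases. Pramef12 had 1615 and 1324 on 2460 bases, so the order and the shares hold among the members only.

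For differences, edgeR's quasi-likelihood test was fitted to raw counts of the 18 libraries together, 1 term to a group, with Benjamini-Hochberg adjustment over the 18469 genes that passed a filter on low counts. A gene was called at an adjusted p under 0.05. Between 54.5% and 74.5% of all genes were called in a comparison of 2 groups, so each count of members stands beside that percentage. Of the 12 members, 7 passed the filter, which were Pramel7, Pramel6, Pramel1, Pramef8, Pramef17, Pramef12 and Pramel3. Pramel3 passed through the iEZR_CA T48 libraries alone, where it was highest, so that it had to differ. The other 5 (Pramef6, Pramef25, Pramel5, Pramef20 and Pramef12os) had too few counts to pass.

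Pramel6 was far higher in iEZR_CA cells at every stage. The 3 WT ESC libraries had normalized counts of 56.2, 58.9 and 57.9, and the 3 iEZR_CA ESC libraries had 803, 821 and 773. The lines did not overlap, and the difference was 13.7-fold (log2 fold change 3.78, SE 0.099, adjusted p = 5.31e-42 by edgeR). At T24, WT libraries had fallen to 1.29, 3.03 and 1.58, while iEZR_CA libraries had 91.7, 121 and 108. These WT values rest on 6 reads in all, and the difference was 54.4-fold (log2 fold change 5.77, SE 0.29, adjusted p = 5.52e-27). At T48 no read fell on Pramel6 in any WT library, whereas iEZR_CA libraries had 14.2, 23.9 and 13.2. Against a floor of 3 reads over the WT T48 group, Pramel6 was at least 17.3-fold higher in iEZR_CA cells (adjusted p = 1.35e-11).

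In time, Pramel6 fell in both lines. In WT cells it dropped 29.1-fold from ESC to T24 (log2 fold change -4.86, SE 0.34, adjusted p = 2.46e-20 by edgeR) and was at least 58.4-fold lower at T48 than in ESCs. In iEZR_CA cells it dropped 7.35-fold to T24 (log2 fold change -2.88, SE 0.090, adjusted p = 2.41e-38) and 44.995-fold to T48 (log2 fold change -5.49, SE 0.12, adjusted p = 1.03e-46). The fall by T24 was smaller in iEZR_CA cells by 1.98 on the log2 scale (SE 0.47, interaction of line and time, adjusted p = 3.99e-04). At 107 ± 14.6 normalized counts (SD, n = 3), iEZR_CA cells at T24 still held more Pramel6 RNA than WT ESCs at 57.7 ± 1.37, a comparison that was not tested.

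Pramel7 took the same course at lower counts. WT ESC libraries had 47.2, 35.2 and 34.9 normalized counts, and iEZR_CA ESC libraries had 277, 256 and 253. The lines were apart by 6.78-fold (log2 fold change 2.76, SE 0.14, adjusted p = 6.1e-28 by edgeR). At T24 the WT libraries had 6.44, 5.05 and 4.73 and the iEZR_CA libraries 66.1, 82.8 and 84.4. At 13.7-fold this was the widest gap of the 3 stages (log2 fold change 3.78, SE 0.26, adjusted p = 4.74e-21). At T48 the WT libraries had 6.18, 3.82 and 1.64 and the iEZR_CA libraries 19.2, 23.1 and 17.99, a 5.06-fold difference (log2 fold change 2.34, SE 0.38, adjusted p = 2.18e-07). Without WT T48 replicate 1, the highest of its group, the log2 fold change was 3.08 (adjusted p = 5.09e-07), and without WT T48 replicate 3 it was 1.87 (adjusted p = 8.33e-05).

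In both lines the fall of Pramel7 from ESC to T24 was called, by 6.71-fold in WT (log2 fold change -2.75, SE 0.30, adjusted p = 1.28e-12 by edgeR) and by 3.32-fold in iEZR_CA cells (log2 fold change -1.73, SE 0.12, adjusted p = 1.16e-20). From T24 to T48 it fell by 3.86-fold in iEZR_CA cells (adjusted p = 3.4e-14), while in WT cells, at 5.41 ± 0.910 and 3.88 ± 2.27 normalized counts (SD, n = 3), no change passed the test (adjusted p = 0.399). The WT values at both times come from 18 and 12 reads. The difference between the lines in the fall by T24 was 1.02 on the log2 scale (SE 0.35, adjusted p = 0.0176), and it was not called with DESeq2 (adjusted p = 0.0556), with spike-in scaling (adjusted p = 0.081) or without WT ESC replicate 1 (adjusted p = 0.0509). Leaving out WT T24 replicate 2 also ended the call.

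Pramel6 and Pramel7 are neighbours. Over the 81 other genes tested within 5 Mb, the median log2 fold change between the lines was 0.00, 0.10 and -0.13 at ESC, T24 and T48. Fitted values of single genes in this stretch ran from -1.74 to 2.94 in ESCs, from -2.48 to 5.62 at T24 and from -4.18 to 3.76 at T48. For the chromosome 4 members, 157 to 160 genes lay within 5 Mb, with medians between -0.10 and 0.09 and single genes between -2.71 and 3.85.

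**Figure D3:**
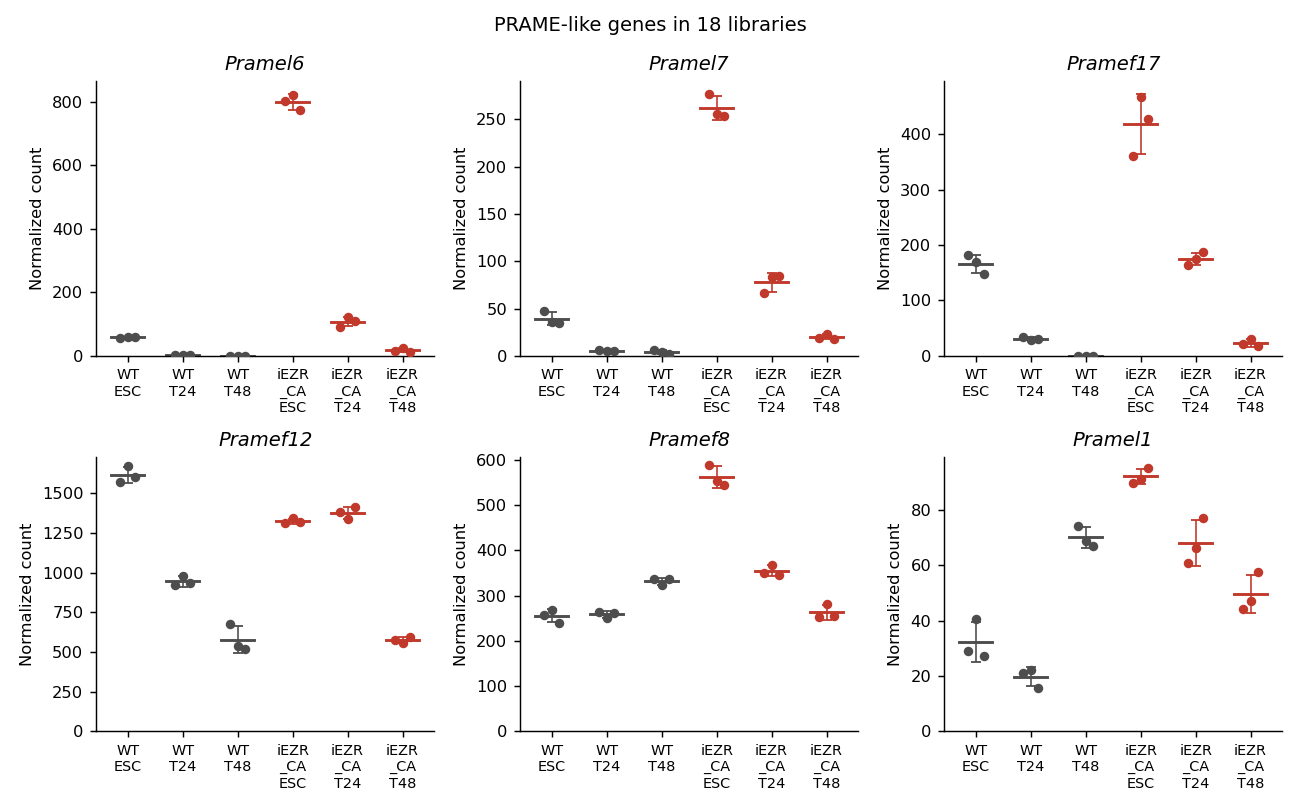
Normalized count (vertical axes, linear) of the 6 members with a group mean of at least 20, in each of 18 libraries (points), with the mean (line) and SD (bar) of 3 libraries, for WT (grey) and iEZR_CA (red) cells at ESC, T24 and T48. Pramel6, Pramel7 and Pramef17 are highest in iEZR_CA ESCs and near 0 in WT cells at T48, while Pramef12, Pramef8 and Pramel1 are present in every group.

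Pramef17 fell during exit as the chromosome 2 pair did, and vanished from WT counts at T48. WT ESC libraries had 181, 169 and 148 normalized counts and iEZR_CA ESC libraries 359.9, 467 and 427. The lines did not overlap and differed 2.53-fold (log2 fold change 1.34, SE 0.096, adjusted p = 2.66e-19 by edgeR). At T24 the WT libraries had 34.1, 28.3 and 29.95 and the iEZR_CA libraries 165, 174 and 187, a 5.58-fold difference (log2 fold change 2.48, SE 0.15, adjusted p = 3.33e-22). At T48 all WT libraries were at 0, whereas iEZR_CA libraries had 21.7, 30.8 and 16.8. Against the floor of 3 reads over the WT group, Pramef17 was at least 23.4-fold higher in iEZR_CA cells (adjusted p = 7.89e-13).

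From ESC to T24, Pramef17 fell 5.28-fold in WT (log2 fold change -2.40, SE 0.16, adjusted p = 1.01e-21 by edgeR) and 2.39-fold in iEZR_CA cells (log2 fold change -1.26, SE 0.096, adjusted p = 3.17e-18). This difference of 1.14 on the log2 scale was itself called (SE 0.19, adjusted p = 1.59e-06). By T48 the WT level was at least 168-fold below that of ESCs, and the iEZR_CA level was 17.5-fold below (log2 fold change -4.13, SE 0.14, adjusted p = 2.33e-36). Since most of its windows occur in Gm13128, the counts of the pair have to be read together.

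Gm13128, which RefSeq calls Pramel30, had 474 ± 9.37, 93.1 ± 16.8 and 1.44 ± 0.594 normalized counts in WT ESC, T24 and T48 cells and 1144 ± 30.7, 479.8 ± 34.3 and 85.8 ± 13.996 in iEZR_CA cells (SD, n = 3). Between the lines its log2 fold change was 1.26 in ESCs (SE 0.061, adjusted p = 2.07e-28 by edgeR), 2.43 at T24 (SE 0.093, adjusted p = 7.01e-34) and 5.88 at T48 (SE 0.34, adjusted p = 1.36e-24), the last against 4 WT reads. In ESCs and at T24 these values lay near those of Pramef17. The ratio of Gm13128 to Pramef17 was between 2.56 and 3.22 in WT ESC libraries, 2.17 and 3.75 in WT T24 libraries, 2.52 and 3.11 in iEZR_CA ESC libraries, 2.63 and 2.91 in iEZR_CA T24 libraries and 2.55 and 6.07 in iEZR_CA T48 libraries. Gm13128 was thus counted more often than Pramef17 in each of these 15 libraries. Whether the ratio reflects 2 transcribed genes or the division of reads between copies was not tested.

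**Figure D4:**
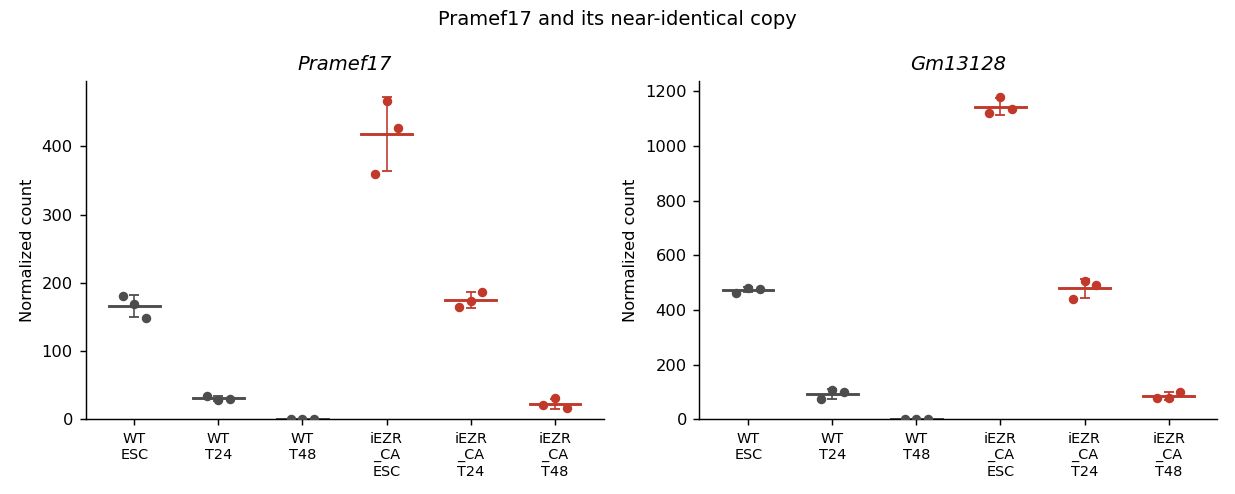
Normalized count (vertical axes, linear and of different range) of Pramef17 (left) and Gm13128 (right) in each of 18 libraries (points), with mean and SD of 3 libraries, for WT (grey) and iEZR_CA (red) cells. Both fall from ESC to T48 in each line and are higher in iEZR_CA cells, with means of 418 and 1144 in iEZR_CA ESCs.

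Pramef12, the member with most reads (20181 in all), behaved otherwise, for its level in iEZR_CA cells stayed up to T24. WT ESC libraries had 1572, 1672 and 1601 normalized counts and iEZR_CA ESC libraries 1311, 1342 and 1319. It was thus lower in the iEZR_CA line, by 1.23-fold (log2 fold change -0.29, SE 0.050, adjusted p = 2.7e-06 by edgeR), a call that spike-in scaling did not give (adjusted p = 0.163). At T24, WT libraries had 920.3, 981 and 933 and iEZR_CA libraries 1379.9, 1339 and 1412.5, now higher by 1.46-fold (log2 fold change 0.54, SE 0.053, adjusted p = 5.59e-12). At T48, WT libraries had 677, 539 and 518 and iEZR_CA libraries 579, 559 and 592. The groups overlapped and no difference passed the test (log2 fold change -0.02, SE 0.065, adjusted p = 0.777).

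Pramef12 fell in WT cells from ESC to T24 by 1.73-fold (log2 fold change -0.79, SE 0.052, adjusted p = 2.06e-17 by edgeR) and on to T48 by 1.61-fold (adjusted p = 2.19e-13). In iEZR_CA cells its log2 fold change to T24 was 0.05 (SE 0.051, adjusted p = 0.421), and it fell between T24 and T48 by 2.39-fold (log2 fold change -1.26, SE 0.057, adjusted p = 7.25e-23). The interaction at T24 was 0.84 on the log2 scale (SE 0.073, adjusted p = 7.68e-13). At T48 it was 0.27 (SE 0.082, adjusted p = 0.00553), a call lost with spike-in scaling (adjusted p = 0.336) and without WT T48 replicate 3 (adjusted p = 0.0854), the library with the lowest WT value of Pramef12 at that time.

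Pramef8 did not fall in WT cells at either time. WT ESC libraries had 257, 269 and 240.1 normalized counts, T24 libraries 264, 250.3 and 262 and T48 libraries 337, 323 and 336. It rose in WT cells by 1.29-fold from ESC to T48 (log2 fold change 0.37, SE 0.074, adjusted p = 9.37e-06 by edgeR) and did not pass the test at T24 (log2 fold change 0.01, SE 0.077, adjusted p = 0.938). iEZR_CA libraries had 589, 553 and 543 in ESCs, 351, 368 and 345 at T24 and 253, 282 and 254 at T48. There Pramef8 fell, by 1.58-fold to T24 (adjusted p = 6.1e-14) and by 2.13-fold to T48 (log2 fold change -1.09, SE 0.068, adjusted p = 4.82e-23).

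The lines therefore crossed in Pramef8. It was 2.19-fold higher in iEZR_CA ESCs (log2 fold change 1.13, SE 0.068, adjusted p = 3.45e-23 by edgeR), 1.37-fold higher at T24 (adjusted p = 1.56e-07) and 1.26-fold lower at T48 (log2 fold change -0.33, SE 0.074, adjusted p = 8.78e-05). The difference at T48 was not called with spike-in scaling (adjusted p = 0.128). The interaction was -0.67 at T24 (SE 0.10, adjusted p = 9.72e-08) and -1.46 at T48 (SE 0.10, adjusted p = 3.19e-20).

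Pramel1 also rose late in WT cells. WT libraries had 29.2, 40.6 and 27.2 normalized counts in ESCs, 21.3, 22.2 and 15.8 at T24 and 74.2, 68.8 and 67.1 at T48. From T24 to T48 the rise was 3.43-fold (log2 fold change 1.78, SE 0.20, adjusted p = 4.13e-12 by edgeR). iEZR_CA libraries had 89.7, 91.2 and 95.2 in ESCs, 60.7, 66.1 and 76.9 at T24 and 44.3, 46.9 and 57.6 at T48. Over the same 48 h, Pramel1 rose 2.12-fold in WT cells (adjusted p = 1.44e-07) and fell 1.88-fold in iEZR_CA cells (adjusted p = 5.66e-07). The interaction at T48 was -1.99 on the log2 scale (SE 0.24, adjusted p = 6.85e-11).

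Between the lines, Pramel1 was 2.77-fold higher in iEZR_CA ESCs (log2 fold change 1.47, SE 0.17, adjusted p = 1.74e-11 by edgeR) and 3.34-fold higher at T24 (log2 fold change 1.74, SE 0.20, adjusted p = 9.98e-12). At T48 it was 1.44-fold lower (log2 fold change -0.52, SE 0.16, adjusted p = 0.00451), which was not called with spike-in scaling (adjusted p = 0.063). Its smaller falls from ESC to T24, of 1.62-fold in WT (adjusted p = 0.00628) and 1.34-fold in iEZR_CA cells (adjusted p = 0.0118), were not called with spike-in scaling either (adjusted p = 0.0854 and 0.31). Without WT ESC replicate 2, the highest of its group, the WT fall was not called (adjusted p = 0.113), and with DESeq2 the iEZR_CA fall was not (adjusted p = 0.087).

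**Figure D5:**
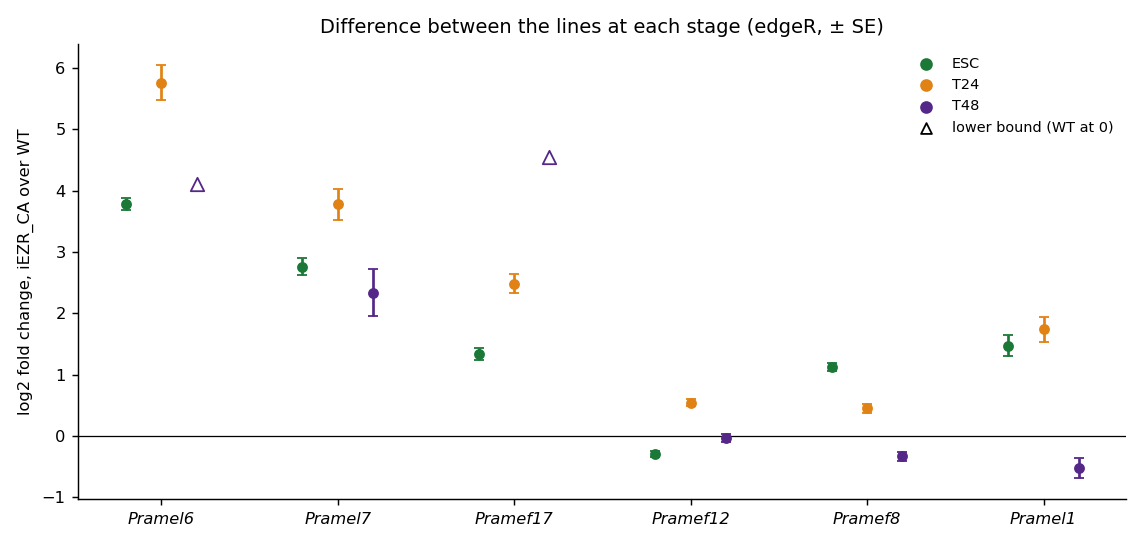
Log2 fold change of iEZR_CA over WT cells (vertical axis, from edgeR, with SE as bars) for the 6 members with a group mean of at least 20, at ESC (green), T24 (orange) and T48 (purple). Open triangles are lower bounds where no WT read was counted. Pramel6, Pramel7 and Pramef17 are above 0 at all 3 stages, and Pramef8 and Pramel1 are below 0 at T48.

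The other 6 members had totals of 12 to 122 reads and at most 13.0 normalized counts in any library. Pramel3 had 4.76 ± 1.09, 5.31 ± 0.678 and 4.44 ± 0.849 normalized counts in WT ESC, T24 and T48 cells and 6.87 ± 0.953, 5.54 ± 3.996 and 11.5 ± 1.64 in iEZR_CA cells (SD, n = 3). Its difference between the lines at T48 (2.51-fold, adjusted p = 0.00937 by edgeR) comes with the filter that let it in. Most of its windows also occur in Gm15023.

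Pramef20 had 7.87, 13.0 and 5.96 normalized counts in WT ESC libraries, from 31 reads, and no read at T24 or T48 in WT cells. Against the floor of 3 reads it was at least 9.48-fold lower at T24. In iEZR_CA cells it had 3.44 ± 1.87 in ESCs and 3.05 ± 0.907 at T24 (SD, n = 3), and no read at T48. Its fall in WT cells by T24 was called when the filter on low counts was left out (adjusted p = 2.75e-07).

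Pramef25, Pramef12os, Pramef6 and Pramel5 had 51, 50, 14 and 12 reads. Their group means reached 5.02 normalized counts in Pramef25, 4.54 in Pramef12os, 1.83 in Pramef6 and 2.69 in Pramel5. With no filter on low counts, Pramel5 was called lower at T48 than in ESCs in iEZR_CA cells (7 reads against 0, adjusted p = 0.0168 by edgeR), and Pramef6 lower at T48 than at T24 in the same line (6 reads against 0, adjusted p = 0.0434). Other differences in these 4 genes were not detectable at this depth.

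Counted over the family, 6 of the 7 members tested were called between the lines in ESCs, against 54.5% of all genes. Of these 5 were higher in iEZR_CA cells and 1 lower, beside 26.4% and 28.1% of all genes. At T24, where 60.9% of all genes were called, 6 members were, each of them higher (30.8% of all genes were higher and 30.1% lower). At T48 the count was 6 members against 61.1% of all genes, with 4 higher and 2 lower beside 31.0% and 30.1%. The median log2 fold change of the 7 members was 1.34, 1.74 and 1.33 at the 3 stages, and that of all genes was -0.01, 0.00 and 0.00. Pramel3 counts among the 4 at T48, and the median of 1.33 at T48 is its own value. That median therefore comes with the filter that let Pramel3 in. The family was chosen with these results known. Comparisons of the lines at different stages share no libraries, and those over time within a line share libraries with each other.

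Over time, 5 members were called lower in WT cells from ESC to T24 (65.4% of all genes were called, 33.6% lower) and 5 in iEZR_CA cells (56.0% called, 28.9% lower). In WT these were Pramel7, Pramel6, Pramel1, Pramef17 and Pramef12, and in iEZR_CA cells Pramef8 stood in place of Pramef12. Past 2-fold were 3 members in each line, Pramel7, Pramel6 and Pramef17, beside 20.8% of all genes in WT and 14.9% in iEZR_CA cells. From ESC to T48, 2 members rose and 4 fell in WT (74.5% of all genes were called, 37.1% higher and 37.4% lower), and 6 fell in iEZR_CA cells (70.1% called, 35.0% lower).

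From T24 to T48, WT cells had 2 members higher and 3 lower (65.7% of all genes called, 32.8% higher and 32.9% lower). By the fitted value 3 of them were past 2-fold, beside 20.6% of all genes. Among these, Pramel6 had 6 reads against 0 and was at least 1.99-fold lower by the floor of 3 reads. In iEZR_CA cells 1 was higher and 6 were lower (59.6% called, 29.6% higher and 30.0% lower), the 1 higher being Pramel3, which passed the filter through the same T48 libraries. The interaction of line and time was called for 5 members at T24 (38.3% of all genes) and for 5 at T48 (45.8%), where leaving out WT T48 replicate 3 left 3. Past 2-fold at T24 it was called for Pramel6, Pramef17 and Pramel7, 3 members beside 8.50% of all genes.

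Across the 18 libraries, the members did not follow 1 course. On the scale of log2(normalized count + 1), Pearson's r was 0.98 between Pramel6 and Pramel7, 0.90 between Pramel6 and Pramef17 and 0.84 between Pramef17 and Pramef12. It was 0.77 between Pramel1 and Pramef8, and 0.04 between Pramel1 and Pramef17. The points share line and time, so these values only describe the pattern. When 12801 genes of mean normalized count 50 or more were compared, those most like Pramel6 were Csrp1 (r = 0.99), Asah1, Vgll4, Vps35l and Nsf. Those most like Pramel7 were Ppp2r1a, Rp2, Vgll4, Nxpe3 and Pramel6 itself, and those most like Pramef17 were Sulf2, Pecam1, Cd55, Plscr1 and Gm13128.

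Of the 8 genes listed for the CUL2 ligase core and neddylation, all were tested, and in ESCs 4 were higher and 2 lower in iEZR_CA cells. The median log2 fold change was 0.01. The same count at T24 was 3 and 3 (median -0.07), and at T48 it was 5 and 3 (median 0.10). The largest difference was in Nedd8, the ubiquitin-like protein that activates cullins, at 1905 and 1038 normalized counts in WT and iEZR_CA ESCs (log2 fold change -0.88, adjusted p = 1.41e-28 by edgeR). Cul2 itself had a log2 fold change of -0.05 in ESCs, which did not pass the test (adjusted p = 0.181), and of -0.32 at T24 (adjusted p = 6.88e-15).

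Uhrf1 RNA had 16734 ± 599.9, 18919 ± 234 and 9794 ± 135 normalized counts in WT ESC, T24 and T48 cells and 13878 ± 234, 15299 ± 91.2 and 11820.0 ± 182 in iEZR_CA cells (SD, n = 3). It was lower in iEZR_CA cells in ESCs (log2 fold change -0.28, SE 0.024, adjusted p = 5.67e-16 by edgeR) and at T24 (-0.31, adjusted p = 5.5e-18) and higher at T48 (0.28, adjusted p = 6.13e-16). These are RNA counts, and UHRF1 protein and DNA methylation were not measured in these libraries.

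Of 11 genes that write, maintain or remove DNA methylation, 4 were higher and 3 lower in iEZR_CA ESCs, with a median log2 fold change of -0.08. At T24 none was higher while 10 were lower (median -0.35), and by T48 the count was 5 and 3 (median -0.01). Of all genes, 26.4% were higher and 28.1% lower in ESCs, 30.8% and 30.1% at T24, and 31.0% and 30.1% at T48, which is the background for this list and for those of the CUL2 ligase and of LIF and STAT3. Dnmt3b, a de novo methyltransferase, rose in WT cells from 3135 normalized counts in ESCs to 30573 at T24 and 59626 at T48, and in iEZR_CA cells from 3655 to 12245 and 26682. Dnmt3l, its cofactor without catalytic activity, had 529 in WT and 1837 in iEZR_CA ESCs, 21425 and 15066 at T24, and 6051 and 16999 at T48. Dnmt3a, the other de novo methyltransferase, differed most among these 11 genes at T24, with 21314 normalized counts in WT and 5738 in iEZR_CA cells (log2 fold change -1.89, adjusted p = 2.3e-48 by edgeR).

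Of 13 genes of LIF and STAT3 signalling, 5 were higher and 5 lower in iEZR_CA ESCs (median log2 fold change -0.01). Stat3 stood at 3385 ± 112 and 3235 ± 86.8 normalized counts in WT and iEZR_CA ESCs (SD, n = 3), and the difference did not pass the test (log2 fold change -0.07, SE 0.034, adjusted p = 0.0573 by edgeR). By T24 the count was 9 higher and 4 lower in iEZR_CA cells (median 0.45), and by T48 9 and 2 (median 0.61). Stat3 then had 847 and 1201 at T24 and 293 and 743 at T48. At T48 the largest differences in this list were in Gbx2, lower by a log2 fold change of -2.76 (adjusted p = 2.15e-28), and Klf4, higher by 2.53 (adjusted p = 2.73e-33).

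Markers of other cell types were set beside these results. All 5 primitive endoderm markers were detected in all groups, with a summed normalized count of 215 to 245 in WT ESCs and 729 to 789.6 in iEZR_CA ESCs. The difference lay in Dab2 (45.2 and 631), while Gata6 had 32.4 and 61.5, Gata4 97.5 and 17.4, Sox17 25.3 and 19.1, and Pdgfra 31.3 and 30.2. Dab2 and Gata6 were called higher and Gata4 lower. The sum was 128 to 161 and 374 to 425 at T24 and 274 to 309 and 205 to 239 at T48. All 4 trophoblast markers had reads, with sums of 203 to 207 in WT and 265 to 276 in iEZR_CA ESCs, 160.5 to 181 and 348 to 400.5 at T24, and 135 to 147 and 416 to 468 at T48. In WT and iEZR_CA ESCs, Gata3 had 28.1 and 138, Eomes 158 and 108, Cdx2 17.4 and 19.3, and Elf5 2.11 and 7.16. Elf5 had group means of 0.400 to 7.16, and Cdx2 had 0.644 and 0.956 at T24, few reads in both cases. The part of the trophoblast markers in the result, like that of primitive endoderm markers, was not tested. In bulk RNA, fewer cells of a type and less RNA per cell cannot be told apart.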

How the data were processed

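PolyA RNA of 18 libraries, which the study calls biological replicates, was sequenced in pairs. Per the study's methods and the submitters' processing notes, the authors used Trim Galore 0.6.5 for trimming, GSNAP for alignment (GRCm38) and HTSeq with Ensembl genes for counting. They deposited raw read counts, neither normalized nor pooled. How reads that align to several places and strand were handled is not given in the sources used here. The counts hold only a separate tally of reads not uniquely aligned.

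Groups came from the sample labels, and replicates were numbered in accession order. Depth was 10940752 to 33276622 counts on genes (median 23096248). Symbols came from GENCODE M21. Counts were tested in R 4.3.3 with edgeR 4.0.16 (filterByExpr with a minimum of 10, TMM factors 0.975 to 1.03, robust quasi-likelihood fit, 12 residual degrees of freedom, Benjamini-Hochberg adjustment, threshold 0.05), which was tested on simulated data. Standard errors came from the fold change and its F statistic. Normalized counts used size factors of DESeq2 1.42.0. Where a group had no reads, folds were bounded with 3 reads over that group.

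Members with a mean normalized count of at least 20 in any group were named with every library, and of the lists (CUL2 ligase core and neddylation, DNA methylation, LIF and STAT3, 2-cell-like genes, PRAME-like genes under other names, and markers of ES cells, primitive endoderm, trophoblast and germ cells) the genes with the largest called fold change, with Uhrf1, Stat3, Dnmt3b and Dnmt3l named whatever they did. Members and lists were chosen with earlier results of these data known. Alternatives were DESeq2, other scalings (DESeq2 size factors, spike-ins), other filters, fits to the compared groups alone, a 2-fold limit, members with 100 or more counts, the longest transcript as length, the local median within 5 Mb, and leaving out each library.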

Additional observations from a re-analysis of the deposited data

Results flagged for a closer look

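The change over time differed between the lines, by the interaction of line and time in edgeR's quasi-likelihood test with Benjamini-Hochberg adjustment, in 10 of the 12 tests made on the 6 members named with values. Over all genes this interaction was called in 38.3% at T24 and 45.8% at T48. Pramel3, which was also tested, was called at neither time (adjusted p = 0.665 and 0.356 by edgeR). The tests at T24 and at T48 share the ESC libraries of both lines. From ESC to T24, the log2 fold change of iEZR_CA cells exceeded that of WT cells by 1.98 for Pramel6, 1.14 for Pramef17, 1.02 for Pramel7 and 0.84 for Pramef12. Pramel6, Pramef17 and Pramel7 fell in both lines, and the fall was smaller in iEZR_CA cells. Pramef12 fell in WT cells and had no called change in iEZR_CA cells. For Pramef8 the difference was -0.67, since it fell in iEZR_CA cells and had no called change in WT cells.

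From ESC to T48, the difference was -1.99 for Pramel1 and -1.46 for Pramef8, both of which rose in WT cells and fell in iEZR_CA cells. It was 0.27 for Pramef12. The calls of Pramel7 at T24 and of Pramef12 at T48 were lost with spike-in scaling and when single WT libraries were left out. For Pramel6 and Pramef17, which had no read in WT cells at T48, no size is given, and the adjusted p was 0.0199 and 1.36e-07 by edgeR. The value of Pramel6 was the highest adjusted p among the calls at T48. Pramef12 was not the only member to lose its call at T48 when WT T48 replicate 3 was left out.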

How the results depend on the processing

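No called change turned its direction under the alternatives. Of changes that were not called, Pramef12 between the lines at T48 (-0.02) was 0.0406 with spike-in scaling and 0.00526 with no filter, on the log2 scale. Leaving out 1 library, it ran from -0.133 to 0.127 (without WT T48 replicate 1), Pramef8 from ESC to T24 in WT (0.01) from -0.0417 (without WT ESC replicate 3) to 0.0470, and the interaction of Pramel7 at T48 (-0.42) from -0.895 to 0.322 (without WT T48 replicate 1). No count moved by over 1.5 times with DESeq2, DESeq2 size factors, spike-in scaling, no filter, the compared groups alone or members with 100 or more counts. A filter of 10 counts or more in each library takes out the genes that fell to few reads. It left Pramel1, Pramef8 and Pramef12 as the only members tested. Of these, 3 were called between the lines in ESCs, 3 at T24 and 2 at T48. Over time, 2 were called in each line from ESC to T24, and 3 in each line from ESC to T48 and from T24 to T48. The interactions at T24 and T48 were called for 2 and 3. Under this filter 13185 genes were tested, of which 8322 to 10614 were called in comparisons of 2 groups. For the interactions at T24 and T48, 6262 and 7312 of them were called. With a 2-fold limit on the fitted value, 3 members were called from ESC to T24 in each line and 3 for the interaction at T24. From T24 to T48 in WT it was 3, among them Pramel6 with 6 reads against 0. Leaving out 1 library gave 3 to 5 calls for the interaction at T48 (3 without WT T48 replicate 3), 5 to 7 from T24 to T48 in iEZR_CA cells, 4 to 5 from ESC to T24 in WT and for the interaction at T24, and the same count elsewhere. Of single log2 fold changes, 9 lost their call with spike-in scaling and 3 with DESeq2, among them Pramel1 from T24 to T48 in iEZR_CA cells (adjusted p = 0.15 and 0.064 by edgeR and DESeq2) and, with spike-ins, Pramef8 in the same comparison (0.0702). Spike-in scaling moved the median of all genes by 0.13 and 0.14 from ESC to T24 and by 0.27 and 0.26 to T48 in WT and iEZR_CA cells. The longest transcript as length moved 17 of 34 levels per kb by more than their SD. No paired analysis was possible because the labels give no replicate numbers. WT counts of Pramel6 and Pramel7 at T24 and T48 rest on 18 reads or fewer.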

Other observations

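Most PRAME-like genes under other symbols had few or no reads. The exception was Gm13128, with 474 and 1144 normalized counts in WT and iEZR_CA ESCs, above every member but Pramef12. Sequence shared with other genes was looked up for the members only. Low counts of the other genes may therefore reflect reads dropped between copies, which was not tested. Of 38 such genes in the table, 23 had no read and 8 had 10 or more. Apart from Gm13128, 2 were tested, and both tended the other way from Pramel6. Gm13119 had 19.2 ± 1.23 normalized counts in WT and 7.43 ± 2.32 in iEZR_CA ESCs (SD, n = 3) and was lower in iEZR_CA ESCs (log2 fold change -1.30, adjusted p = 0.00139 by edgeR). Gm12794 had 14.5 ± 2.20 and 7.99 ± 1.12 in ESCs (adjusted p = 0.0609) and was lower in iEZR_CA cells at T24 (log2 fold change -1.45, adjusted p = 0.0337) and at T48 (-1.67, adjusted p = 0.00528).

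Zscan4 genes mark a rare 2-cell-like state of ESC cultures. Of 17 listed genes of this state 6 were tested. In iEZR_CA ESCs, Tdpoz4 was called higher (log2 fold change 1.16, adjusted p = 0.027 by edgeR) and 4 Zscan4 genes lower, beside 26.4% and 28.1% of all genes, and the median log2 fold change was -0.90. At T24, 3 were called lower, and at T48 1, beside 30.1% of all genes at both times. Their summed normalized count was 188 to 231 in WT and 132 to 149.8 in iEZR_CA ESCs. The log2 fold change was -1.16 for Zscan4a in ESCs (adjusted p = 1.94e-05 by edgeR) and -1.72 for Zscan4d at T24 (adjusted p = 1.01e-08). Zscan4 genes are near-identical copies, so their counts are uncertain.

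Of 5 germ cell and oocyte markers, 3 were tested, and at each stage 2 were higher and 1 lower in iEZR_CA cells. Of all genes, 26.4% were higher and 28.1% lower in ESCs, 30.8% and 30.1% at T24, and 31.0% and 30.1% at T48. In ESCs Zp3, a protein of the egg coat, was higher by a log2 fold change of 1.28, Ddx4 was higher by 0.98 and Dazl lower by -0.17. At T24 the same genes were higher and lower. By T48 Ddx4 was the lower one (-0.30), while Dazl (0.53) and Zp3 (1.23) were higher. Their summed normalized count was 2997 to 3195 in WT and 3156 to 3224 in iEZR_CA ESCs, most of it Dazl. Of the 3 trophoblast markers tested, Gata3 was higher in iEZR_CA cells at all stages (log2 fold change 2.29, 2.54 and 3.60). Eomes was lower in ESCs (-0.56, adjusted p = 1.43e-05 by edgeR) and higher at T48 (1.15, adjusted p = 6.2e-16), and Cdx2 was lower at T48 (-1.04, adjusted p = 0.0134).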
